A study of Mus musculus with 6 samples.

Results

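Expression of 10 genes of arginine and polyamine metabolism was examined in prostate tumours grown in castrated mice carrying a donor's bone marrow. The genes were taken by symbol as 10 of the 21718 genes in the deposited count table: the arginases Arg1 and Arg2, the inducible nitric oxide synthase Nos2, the arginine carrier Slc7a2, argininosuccinate synthase Ass1, and the polyamine enzymes Odc1, Srm, Sms, Sat1 and Smox. All 10 were found, and all 10 passed the filter on low counts. The 6 recipients' tumours were Ptenpc-/- in both groups. Recipients had 900 rad of irradiation and the marrow graft when 6 weeks old and were castrated when 8 weeks old, and tumours were taken 16 weeks after castration. In the F10-intact group (3 samples, numbered 1, 3 and 4) the donors were F10fl/fl without the Cre, and in the F10-deleted group (3 samples, numbered likewise) they were F10fl/fl; LysM-Cre+. LysM-Cre is driven by the Lyz2 locus, which is active in macrophages, monocytes and neutrophils, so deletion of coagulation factor X was aimed at myeloid cells from the graft, while tumour cells, stroma and any host macrophages that outlived irradiation kept their own alleles. The labels do not say whether a sample is 1 animal or a pool, nor how complete the reconstitution was.

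Arginine enters cells through cationic amino acid carriers and is then contested by different enzymes. Arginases split it into urea and ornithine, and nitric oxide synthases turn it into nitric oxide and citrulline, which argininosuccinate synthase and lyase recycle to arginine. Ornithine feeds the polyamines: ornithine decarboxylase makes putrescine, spermidine synthase and spermine synthase extend it, and an acetyltransferase and an oxidase reverse these steps. In tumours Arg1 and Nos2 are best known from myeloid cells, where they are used as markers of opposed activation states, and the prostate is known for secreting polyamines, spermine above all.

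The libraries held 9237308 to 11821588 counts. F10 itself was counted 2, 6 and 17 times in F10-intact samples 1, 3 and 4, and 7, 4 and 9 times in F10-deleted samples 1, 3 and 4, too few to check the labels, and whole-gene counts do not show the deleted part. F10-intact sample 4 stood apart from the other 5 on the first principal component (49.1% of the variance). Log2 fold changes without it, or their range with 1 sample left out, are therefore given where they moved by over 1.5 times. Among markers of the labelled tissue, the 10 luminal epithelial genes summed to 7883 to 8505 CPM (counts scaled to library size with TMM factors) in the F10-intact tumours and 7119 to 8234 CPM in the F10-deleted tumours. Only 3 of these 10 had a fold change above 1. The samples are whole tissue, so a lower value of a transcript may come from fewer cells that make it or from less RNA per cell, and these cannot be told apart.

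None of the 10 genes passed the edgeR quasi-likelihood test at an adjusted p under 0.05, a threshold that 7 of 15963 tested genes (0.0439%) passed. DESeq2 called 0 of the 10 against 3.18% of all genes with an adjusted p, and edgeR with the shared sample numbers as a block called 0 of the 10 against 0.0125% of all genes. At an unadjusted p under 0.05, edgeR gave 3 of the 10 with higher values in the F10-deleted tumours, Arg1, Nos2 and Slc7a2, and 1 with lower values, Sms. The shares over all genes were 6.15% for higher and 4.74% for lower values. The same 3 genes were higher in every F10-deleted sample than in any F10-intact sample, which 8.99% of all genes were, and 0 of the 10 were lower in every F10-deleted sample, which 7.67% of all genes were. In all, 6 of the 10 had a fold change above 1 and 4 below, with a median log2 fold change of 0.29, where the median over all tested genes was -0.02.

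**Figure D1:**
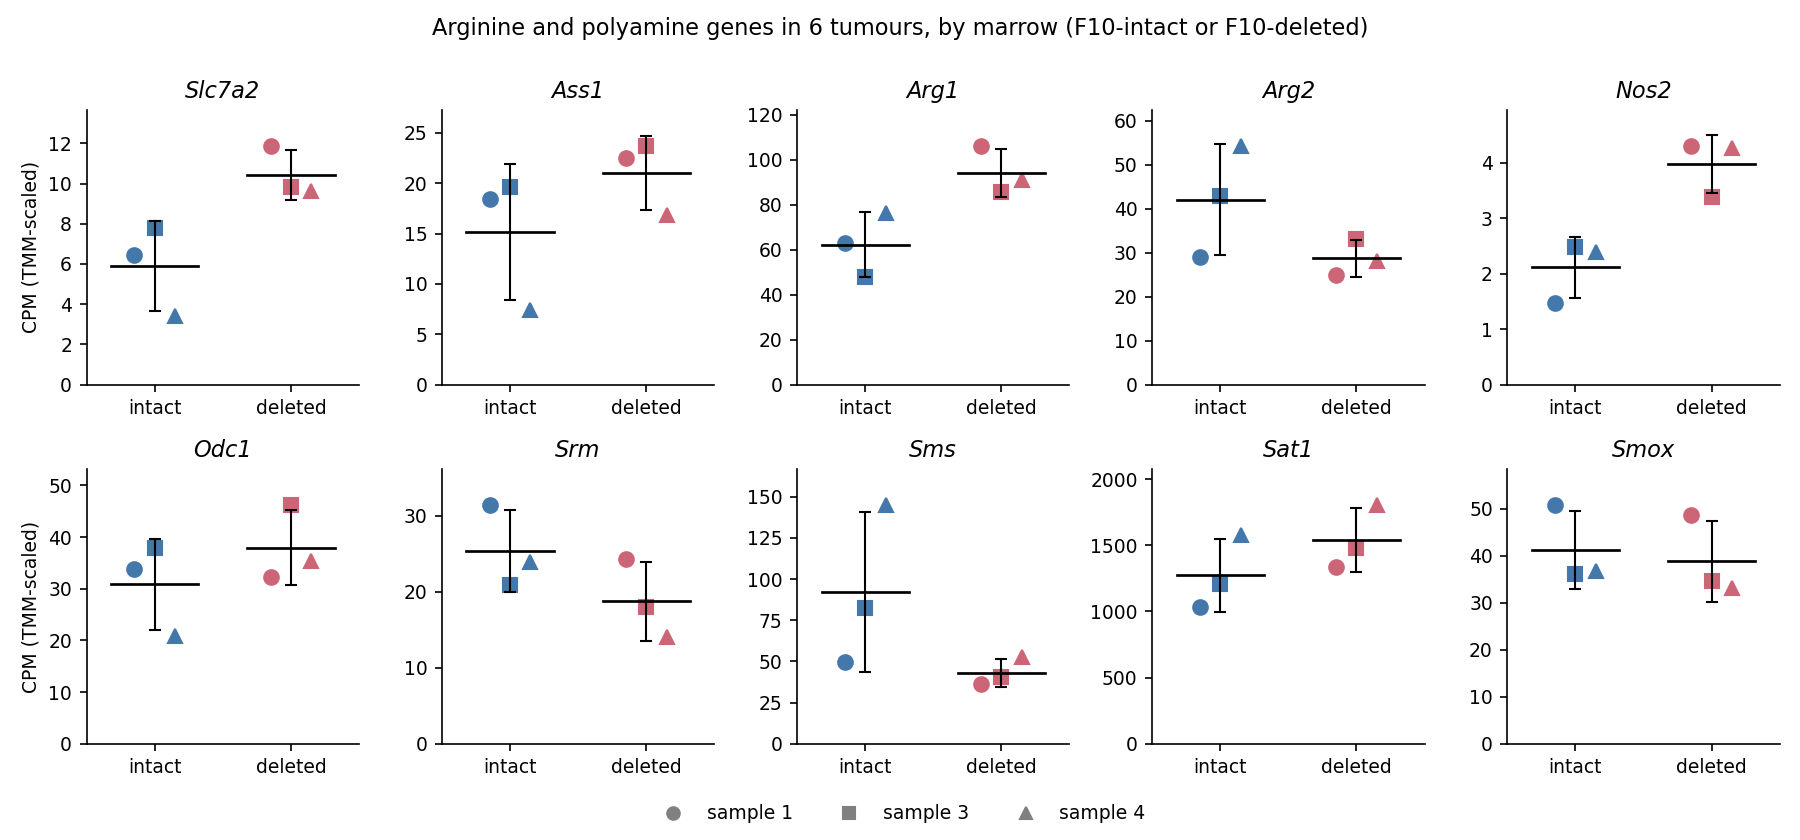
Level of each of the 10 genes in the 6 tumours. The vertical axes are CPM scaled with TMM factors and start at 0, symbols mark the sample number, the horizontal line is the mean and the bars are the SD (n = 3 per group). Slc7a2, Arg1 and Nos2 have all 3 F10-deleted samples above all 3 F10-intact samples, and the other 7 genes overlap.

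Of the 5 genes with a promoter window in the reference table, 3 are shown because they departed furthest in F10-intact sample 4, where Sms was high and Ass1 and Odc1 were low. Each runs from 250 bases before to 50 bases after the annotated start (RefSeq, GRCm38.p6), 5′ to 3′ on the gene's strand. Capitals mark CACGTG, the palindromic E-box bound by Myc, Max and related factors.

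Sms (chrX:157492238-157492537, minus strand): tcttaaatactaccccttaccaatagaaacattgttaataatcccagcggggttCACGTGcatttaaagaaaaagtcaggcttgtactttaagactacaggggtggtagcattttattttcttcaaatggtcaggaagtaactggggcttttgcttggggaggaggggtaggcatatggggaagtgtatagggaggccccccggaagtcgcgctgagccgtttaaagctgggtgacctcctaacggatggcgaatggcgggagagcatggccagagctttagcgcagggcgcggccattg

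Ass1 (chr2:31470020-31470319, plus strand): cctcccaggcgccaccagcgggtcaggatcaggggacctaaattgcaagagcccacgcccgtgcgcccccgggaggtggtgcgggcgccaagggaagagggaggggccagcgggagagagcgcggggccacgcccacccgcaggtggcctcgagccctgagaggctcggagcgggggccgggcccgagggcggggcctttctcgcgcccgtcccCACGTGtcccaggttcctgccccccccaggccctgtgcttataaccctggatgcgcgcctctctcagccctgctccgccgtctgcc

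Odc1 (chr12:17544623-17544922, plus strand): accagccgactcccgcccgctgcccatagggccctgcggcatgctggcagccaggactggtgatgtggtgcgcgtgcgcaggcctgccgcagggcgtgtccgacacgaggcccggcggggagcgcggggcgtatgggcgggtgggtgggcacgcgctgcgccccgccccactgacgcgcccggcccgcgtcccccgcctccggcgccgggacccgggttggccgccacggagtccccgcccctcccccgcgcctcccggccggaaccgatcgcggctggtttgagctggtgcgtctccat

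The first base of the E-box lay at position -196 from the start in the Sms window and at -36 in the Ass1 window, and were not in the Odc1 window. Over all 32851 windows of 300 bases, 7.15% held CACGTG on either strand. The GC box letters GGGCGG, counted on both strands, occurred 0 times in the Sms window, 1 time in that of Ass1 and 4 times in that of Odc1, and 35.7% of all windows held them. A second Sms start had a window with 4 GC boxes and no E-box. TATAAA was in none of these windows and in 13.6% of all. The GC content was 50.3% for the Sms window shown, 74.0% for Ass1 and 78.0% for Odc1. Sat1 and Smox were the other 2 genes with a window, and Arg1, Arg2, Nos2, Slc7a2 and Srm did not match.

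Uptake and arginine synthesis come first in the pathway. Slc7a2 (ENSMUSG00000031596, chromosome 8, 40862396 to 40922308, plus strand, GRCm38) encodes CAT2, an arginine carrier that supplies activated macrophages and is also made in muscle and liver. It had 6.46, 7.80 and 3.42 CPM in F10-intact samples 1, 3 and 4 and 11.9, 9.81 and 9.64 CPM in F10-deleted samples 1, 3 and 4. The groups did not overlap, and F10-intact sample 4 was the lowest. The edgeR log2 fold change was 0.82 ± 0.33 (SE, 95% interval 0.06 to 1.57), with an unadjusted p of 0.0372 and an adjusted p of 0.418. It was 0.54 without F10-intact sample 4. Slc7a1, the widespread arginine carrier CAT1, described after its values were seen, had 21.2 to 36.7 CPM in the F10-intact samples and 29.4 to 41.0 CPM in the F10-deleted samples, or 0.28 ± 0.23 as a log2 fold change (SE, edgeR adjusted p = 0.726). With 1 sample left out, the Slc7a1 value ranged from 0.08 to 0.48.

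Ass1 (ENSMUSG00000076441, chromosome 2, 31470207 to 31520672, plus strand) joins citrulline and aspartate on the way back to arginine. Its levels were 18.5, 19.6 and 7.36 CPM in the F10-intact samples and 22.5, 23.7 and 16.8 CPM in the F10-deleted samples. Here 5 of the 6 tumours lay between 16.8 and 23.7 CPM and F10-intact sample 4 alone was lower. Fitted on all samples the log2 difference was 0.47 ± 0.36 (SE, edgeR adjusted p = 0.705), and without that sample 0.14.

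The arginases stood on opposite sides of the comparison. Arg1 (ENSMUSG00000019987, chromosome 10, 24915221 to 24927484, minus strand), the cytosolic arginase of liver and of some myeloid cells, was counted 681, 556 and 735 times in F10-intact samples 1, 3 and 4, and 1010, 1012 and 1066 times in F10-deleted samples 1, 3 and 4. Scaled, these were 62.8, 47.7 and 76.2 CPM against 106, 85.6 and 90.9 CPM, or 62.2 ± 14.3 and 94.2 ± 10.6 CPM (SD, n = 3 each). Every F10-deleted tumour was above every F10-intact tumour. This was a log2 fold change of 0.60 ± 0.19 (SE, 95% interval 0.16 to 1.04), a fold of 1.51, with an edgeR unadjusted p of 0.0141 and an adjusted p of 0.308. Its log2 fold change was above 0 with each sample left out, from 0.44 to 0.77.

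Arg2 (ENSMUSG00000021125, chromosome 12, 79130777 to 79156301, plus strand), the mitochondrial arginase, had a lower mean with deleted marrow. Its levels were 29.0, 42.8 and 54.2 CPM in the F10-intact samples and 24.9, 33.2 and 28.1 CPM in the F10-deleted samples. F10-intact samples 3 and 4 were the highest, and F10-intact sample 1 lay among the F10-deleted samples. Its log2 fold change was -0.55 ± 0.24 (SE, 95% interval -1.10 to 0.01, edgeR adjusted p = 0.463), or -0.32 without F10-intact sample 4. Exons of Arg2 overlap Vti1b and Gm48780 on the opposite strand. Whether counting used strand is not given in the sources used here, and their reads may be mixed. Vti1b, a vesicle fusion protein, had a log2 fold change of -0.12 ± 0.13 (SE), and Gm48780 had at most 5 counts in any sample.

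A ratio of genes within a library does not depend on scaling between libraries. The log2 ratio of Arg1 to Arg2 counts (plus 0.5) was 1.12, 0.16 and 0.49 in F10-intact samples 1, 3 and 4 and 2.09, 1.37 and 1.69 in F10-deleted samples 1, 3 and 4. The groups did not overlap, with means of 0.59 ± 0.49 and 1.72 ± 0.36 (SD, n = 3 each) and a difference of 1.13. An exact two-sided permutation test gave p = 0.1, the smallest it can give with 3 against 3, and 0.233 after adjustment over the 7 ratios compared. Within the sample numbers 1, 3 and 4 the difference was 0.97, 1.21 and 1.20. Per length of exon, Arg1 made up 58.2%, 41.7% and 47.4% of the summed arginase level with intact marrow, against 73.2%, 62.3% and 67.4% with deleted marrow.

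**Figure D2:**
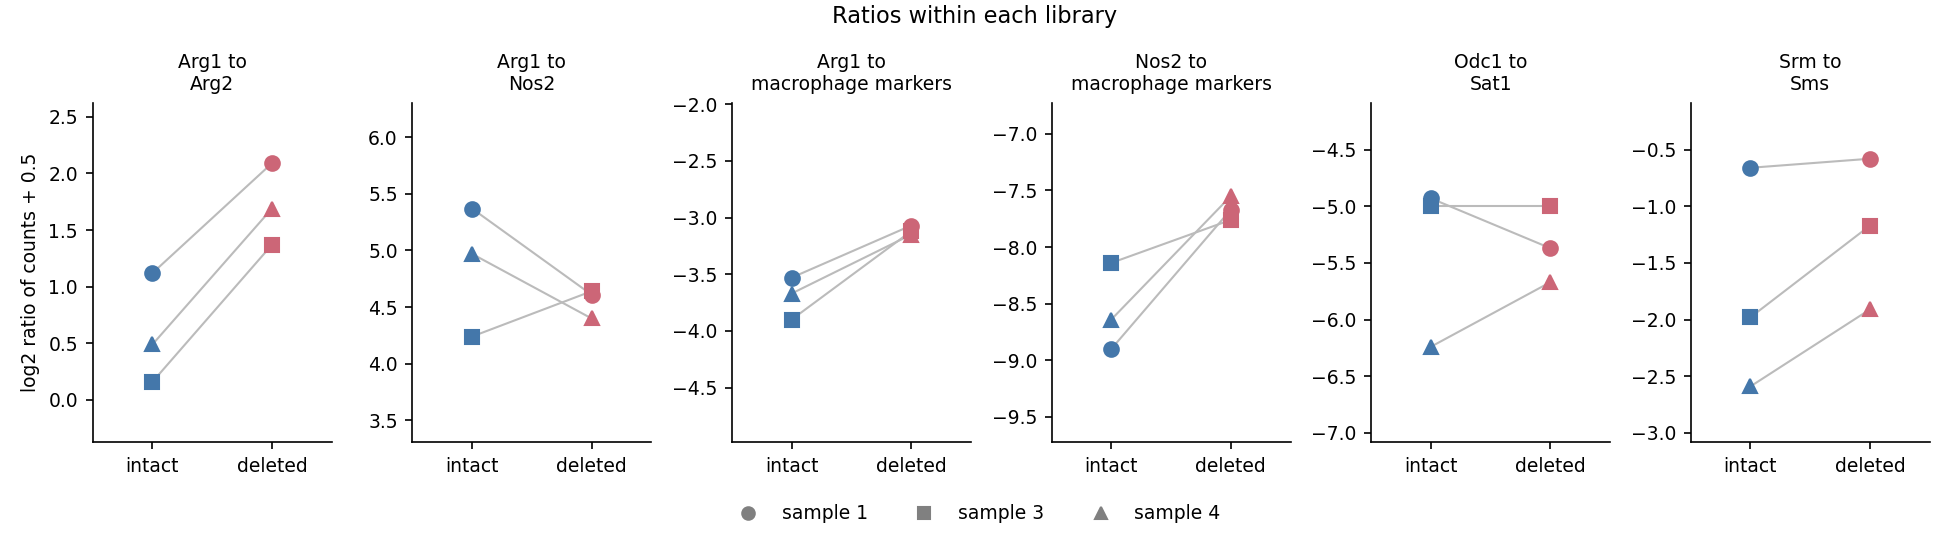
Ratios of counts within each library. The vertical axes are log2 ratios of counts plus 0.5, each spanning 3 log2 units but centred differently, symbols mark the sample number and grey lines join samples with the same number. Arg1 to Arg2 is higher in all 3 F10-deleted samples (1.37 to 2.09) than in the F10-intact samples (0.16 to 1.12), as are Arg1 and Nos2 to the macrophage markers, while the other ratios shown overlap.

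Nos2 (ENSMUSG00000020826, chromosome 11, 78920787 to 78960254, plus strand), the synthase that inflammatory stimuli switch on, was rare. It was counted 16, 29 and 23 times with intact marrow and 41, 40 and 50 times with deleted marrow, or 1.48, 2.49 and 2.38 CPM against 4.31, 3.38 and 4.26 CPM. As with Arg1, the groups did not overlap. The log2 fold change was 0.91 ± 0.34 (SE, 95% interval 0.13 to 1.69), a fold of 1.88, with an edgeR unadjusted p of 0.0275 and an adjusted p of 0.375. It ranged from 0.74 to 1.05 with 1 sample left out.

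The values of Arg1 and Nos2 were thus both higher, and their ratio was not displaced beyond the spread. The log2 ratio of Arg1 to Nos2 counts was 5.37, 4.24 and 4.97 with intact marrow against 4.61, 4.64 and 4.40 with deleted marrow. The F10-deleted values lay within the F10-intact range, and the means differed by -0.31 (exact two-sided permutation p = 0.5, adjusted 0.7). That difference ranged from -0.62 to -0.05 with 1 sample left out. Nos1, the neuronal and muscle synthase, was above Nos2 per length of exon in 5 of 6 tumours, the exception being F10-intact sample 4. Nos1 had 7.66, 10.97 and 1.76 CPM in the F10-intact samples and 18.4, 16.8 and 12.1 CPM in the F10-deleted samples (log2 fold change 1.20 ± 0.55, SE, edgeR adjusted p = 0.494), or 0.75 as a log2 fold change without F10-intact sample 4.

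Levels of other cell types' markers were set beside these results. The 12 macrophage markers summed to 713 to 974 CPM with intact and 744 to 890 CPM with deleted marrow, and 4 of the 12 had a fold change above 1. The 8 neutrophil markers measured summed to 567 to 830 CPM and 575 to 948 CPM, with 1 of the 6 tested above 1. None of these markers was at 0 in all samples. Lyz2, a macrophage marker whose locus carries the Cre, had 101, 146 and 313 CPM against 255, 210.3 and 274 CPM. Relative to the summed macrophage markers, Arg1 was higher in the F10-deleted group by 0.59 on the log2 scale and Nos2 by 0.90, both without overlap (exact two-sided permutation p = 0.1 for each, adjusted 0.233). Without Lyz2 the differences were 0.74 and 1.05, a choice made after seeing the data.

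Of the other marker lists, 4 did separate the groups. The 10 skeletal muscle markers summed to 13.8 to 110 CPM in the F10-intact samples and 742 to 1810 CPM in the F10-deleted samples, with all 10 above 1 in fold change. The 8 adipocyte markers stood at 11.3 to 25.7 CPM and 120 to 211 CPM, with all 6 tested above 1. The 8 basal epithelial markers stood at 1017 to 2239 CPM and 2423 to 4034 CPM, with all 8 above 1. The 8 fibroblast markers stood at 1312 to 1528 CPM and 1550 to 1617 CPM, with 7 of 8 above 1. None of the markers in these 4 lists was at 0 in all samples. Their part in the values of Arg1, Nos2, Nos1 and Slc7a2 was not tested. Other lists overlapped but varied widely. Seminal vesicle markers stood at 78.8 to 4179 CPM in the F10-intact and 327 to 3315 CPM in the F10-deleted samples. Urothelial markers stood at 150 to 426 CPM and 329 to 1585 CPM, with all 6 above 1, and smooth muscle markers at 929 to 3373 CPM and 1319 to 2551 CPM. The 8 endothelial markers overlapped only narrowly, at 37.3 to 65.0 CPM and 64.2 to 93.9 CPM, with all 8 above 1. Their part in the values of Nos1 and Nos2 was not tested either.

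Polyamine synthesis begins with Odc1 (ENSMUSG00000011179, chromosome 12, 17544794 to 17551505, plus strand), ornithine decarboxylase, a classic target of Myc. Its levels were 33.8, 37.9 and 20.8 CPM in the F10-intact samples and 32.3, 46.2 and 35.4 CPM in the F10-deleted samples. Except for the low F10-intact sample 4 and the high F10-deleted sample 3, the values lay between 32.3 and 37.9 CPM. Its log2 fold change of 0.30 ± 0.25 (SE, 95% interval -0.28 to 0.87, edgeR adjusted p = 0.725) became 0.08 without F10-intact sample 4, while dropping F10-deleted sample 3 gave 0.16.

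The aminopropyl transferases had lower mean values in the F10-deleted group. Srm (ENSMUSG00000006442, chromosome 4, 148591503 to 148594993, plus strand), spermidine synthase, had 31.4, 20.8 and 24.0 CPM in the F10-intact samples and 24.3, 17.9 and 14.0 CPM in the F10-deleted samples. The groups overlapped (log2 fold change -0.44 ± 0.25, SE, edgeR adjusted p = 0.582), or -0.23 without F10-intact sample 1, while dropping F10-deleted sample 4 gave -0.27. Sms (ENSMUSG00000071708, chromosome X, 157443855 to 157492287, minus strand), spermine synthase, whose promoter is printed above, had 49.5, 82.5 and 145 CPM in the F10-intact samples and 36.3, 40.4 and 52.7 CPM in the F10-deleted samples. F10-intact samples 3 and 4 were the highest of the 6, and F10-intact sample 1 fell below F10-deleted sample 4. Its log2 fold change was -1.09 ± 0.37 (SE, 95% interval -1.97 to -0.22), a fold of 0.468, with an edgeR unadjusted p of 0.0208 and an adjusted p of 0.346. Without F10-intact sample 4 it was -0.61, and DESeq2 gave an adjusted p of 0.0811, in a range of 0.0811 to 0.817 over the alternatives. The log2 ratio of Srm to Sms overlapped between the groups, with a difference of 0.52 (exact two-sided permutation p = 0.4, adjusted 0.7), which was 0.10 without F10-intact sample 4, while dropping F10-intact sample 1 gave 1.07.

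Of the back-conversion genes, Sat1 (ENSMUSG00000025283, chromosome X, 155213132 to 155216449, minus strand) encodes the acetyltransferase that marks spermidine and spermine for export or oxidation. It had 1032, 1211 and 1577 CPM in the F10-intact samples and 1336, 1479 and 1804 CPM in the F10-deleted samples. In both groups sample 1 was the lowest and sample 4 the highest, and each F10-deleted sample was above the F10-intact sample of the same number. The log2 fold change was 0.27 ± 0.21 (SE, edgeR adjusted p = 0.708), or 0.29 with the sample number as a block (edgeR adjusted p = 0.359), and 0.14 without F10-deleted sample 4. Dropping F10-intact sample 1 gave 0.18, and dropping F10-intact sample 4 gave 0.45. The log2 ratio of Odc1 to Sat1 differed by 0.04 between the group means, within a pooled SD of 0.57 (exact two-sided permutation p = 1). This difference changed sign with 1 sample left out, from -0.38 (without F10-intact sample 4) to 0.27. Smox (ENSMUSG00000027333, chromosome 2, 131491496 to 131525922, plus strand), spermine oxidase, had 50.8, 36.1 and 36.8 CPM in the F10-intact samples and 48.7, 34.6 and 33.1 CPM in the F10-deleted samples. Sample 1 was the highest in each group, and the log2 fold change was -0.09 ± 0.21 (SE, 95% interval -0.58 to 0.40, edgeR adjusted p = 0.926), from -0.25 to 0.12 with 1 sample left out. Without F10-intact sample 4 it was -0.17.

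**Figure D3:**
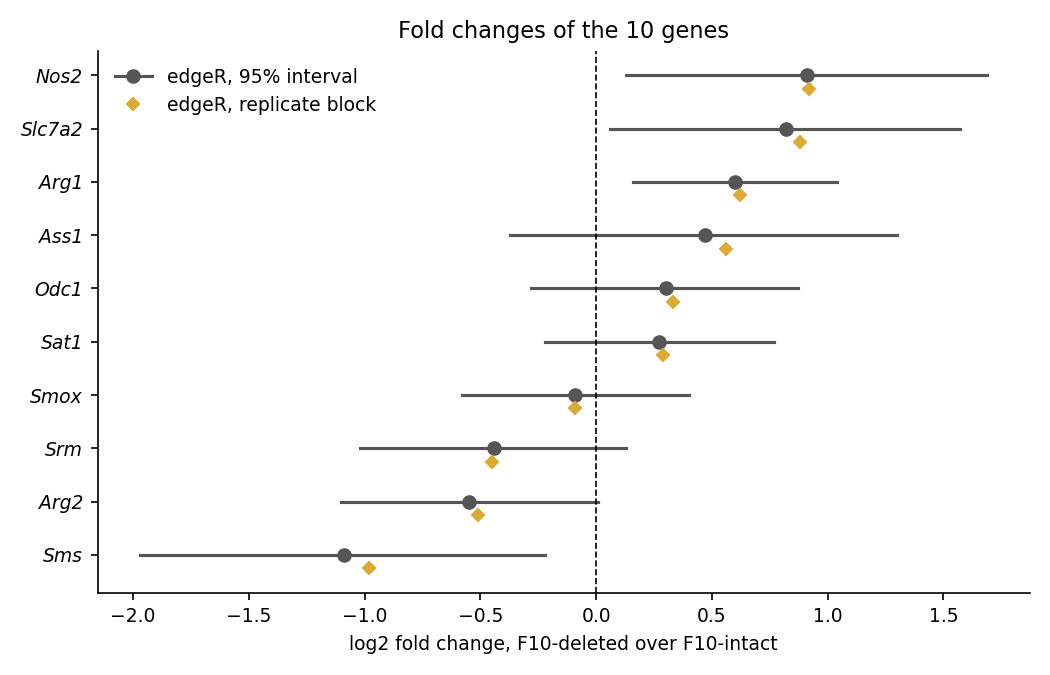
Log2 fold changes, F10-deleted over F10-intact, of the 10 genes. Circles and lines are edgeR estimates with 95% intervals (n = 3 per group) and diamonds are the estimates with the sample number as a block. The intervals of Nos2, Slc7a2, Arg1 and Sms do not reach 0 before adjustment over all genes, and 0 of the 10 pass after it.

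The 10 genes did not vary together across the 6 tumours. Relative to each gene's mean over the samples, on the log2(CPM + 0.5) scale, F10-intact sample 4 was at -1.16 for Ass1, -1.06 for Slc7a2 and -0.67 for Odc1. In the same tumour Sms was at 1.27 and Arg2 at 0.66, while Arg1 was at 0.01. Arg1 was lowest in F10-intact sample 3 (-0.66) and Nos2 in F10-intact sample 1 (-0.78). F10-deleted sample 1 was the highest of the 6 for Arg1 (0.48), Nos2 (0.50) and Slc7a2 (0.60), and the lowest for Sms (-0.71) and Arg2 (-0.45).

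**Figure D4:**
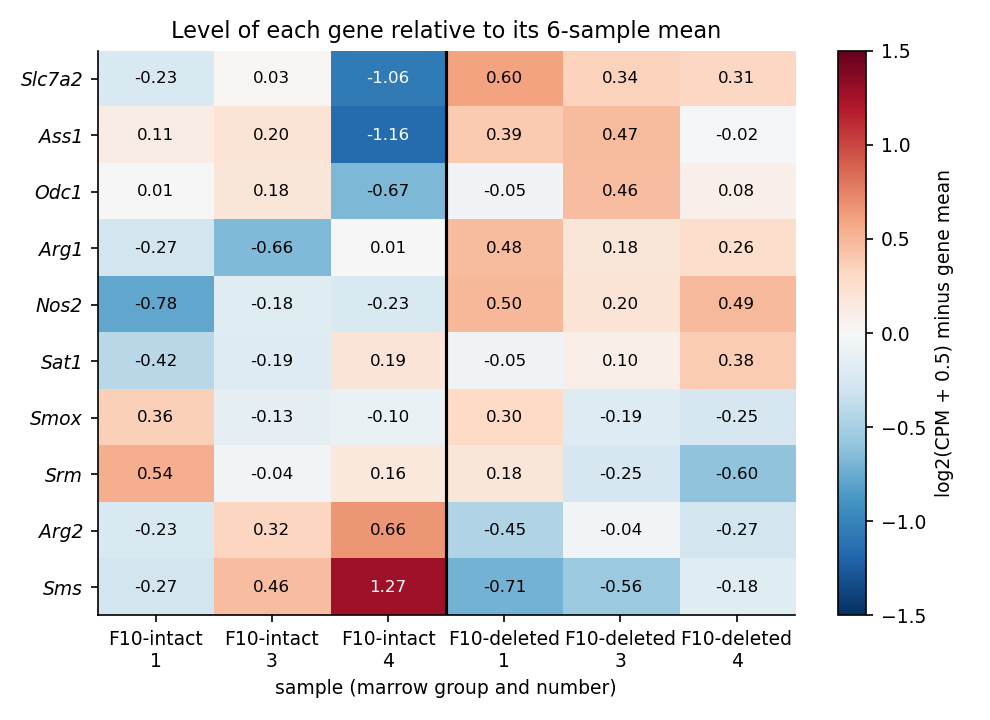
Level of each gene in each tumour relative to its mean over the 6 samples, in log2(CPM + 0.5), with the value printed in each cell and the marrow groups split by the black line. F10-intact sample 4 carries both the lowest values (Ass1 at -1.16 and Slc7a2 at -1.06) and the highest (Sms at 1.27).

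Per kilobase of exon, Sat1 was the most abundant of the 10 by far, at 372 to 650 CPM per kilobase. The arginases came next, Arg1 at 27.9 ± 6.41 CPM per kilobase with intact marrow and 42.3 ± 4.76 with deleted marrow, and Arg2 at 29.4 ± 8.85 and 20.1 ± 2.92 (SD, n = 3 each). The ranges of Arg1 and Arg2 overlapped with intact marrow and were separate with deleted marrow. Srm, Sms, Smox, Odc1 and Ass1 followed, with group means from 15.9 (Srm) down to 6.28 (Ass1) CPM per kilobase with intact marrow and from 11.7 (Srm) down to 7.18 (Sms) with deleted marrow. By group mean, Sms was the second of these 5 with intact marrow and the last with deleted marrow. The order among them is not resolved, since the ranges of Srm and Sms, Sms and Smox, Smox and Odc1, and Odc1 and Ass1 overlapped in both groups. Sms itself had 8.23, 13.7 and 24.1 CPM per kilobase in F10-intact samples 1, 3 and 4. Slc7a2 at 0.645 ± 0.246 and 1.14 ± 0.136 and Nos2 at 0.480 ± 0.126 and 0.903 ± 0.118 CPM per kilobase were the lowest. These levels use the union of annotated exons as the length, which understates a gene with long rarely used exons.

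A fixed rule named the 3 genes nearest to Arg1, Nos2, Odc1 and Ass1, by the root mean square distance of log2(CPM + 0.5), centred on the gene, over the 6 samples. For Arg1 they were Ccdc85a, Tmem100 and Dapl1, at distances of 0.0912, 0.0949 and 0.115. Tmem100, a membrane protein, had 3.41, 2.57 and 4.56 CPM in the F10-intact samples and 5.25, 4.57 and 5.29 CPM in the F10-deleted samples. For Nos2 they were Egln3, Scn8a and Bhlhe22, at 0.0993, 0.121 and 0.123. Egln3, a prolyl hydroxylase that acts on the hypoxia-inducible factors, had 22.1, 30.9 and 30.3 CPM against 43.9, 42.2 and 46.9 CPM. For Odc1 they were Phldb2, Vav3 and Zhx1, at 0.0579, 0.0608 and 0.0667, and for Ass1 Map7d2, Gucy1a1 and Sox5, at 0.0726, 0.0952 and 0.108. Gucy1a1, a subunit of the guanylate cyclase that senses nitric oxide, had 11.4, 14.5 and 5.29 CPM against 14.8, 15.2 and 11.9 CPM. The same measure for Sms, added after its values were seen, gave Mcoln2, Arfgef3 and Dnajc10, at 0.0488, 0.0961 and 0.121. Dnajc10, a chaperone of the endoplasmic reticulum, had 1320.0, 2560.1 and 3893 CPM in the F10-intact samples and 1007, 1116 and 1231 CPM in the F10-deleted samples. All these neighbours were picked as the closest among tested genes with a mean of at least 1 CPM, over only 6 samples. Their closeness follows from that choice, and a link in function was not tested.

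The wider pathway was followed in 8 lists of 116 other genes, of which 96 were tested. None passed the edgeR test at an adjusted p under 0.05, and at an unadjusted p under 0.05 there were 6 with higher and 8 with lower values, or 6 called by DESeq2 in either direction. Over all genes these shares were 6.15%, 4.74% and 3.18%. The groups did not overlap for 11 higher and 11 lower of the 96, against 8.99% and 7.67% of all genes, and the median log2 fold change was 0.05.

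Among 10 tested genes of arginine supply and the urea cycle, 0 passed, and 8 had a fold change above 1. Slc25a29, a mitochondrial carrier of basic amino acids, had 20.9, 18.7 and 27.9 CPM in the F10-intact samples and 12.3, 9.22 and 10.3 CPM in the F10-deleted samples, without overlap (log2 fold change -1.09 ± 0.22, SE, edgeR adjusted p = 0.122, DESeq2 adjusted p = 0.00297). Asl, argininosuccinate lyase, which works after Ass1, had 45.4, 50.3 and 60.2 CPM against 39.1, 39.3 and 31.3 CPM, also without overlap (-0.51 ± 0.17, SE, edgeR adjusted p = 0.319). Slc7a6, a subunit of an exchanger of basic and neutral amino acids, was at 0.44 ± 0.18 (SE, edgeR adjusted p = 0.437).

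In the nitric oxide branch 0 of 14 passed, and 9 were above 1. Gchfr, which restrains the synthesis of the cofactor tetrahydrobiopterin, had 8.67, 6.69 and 14.9 CPM against 7.56, 3.72 and 3.84 CPM, with overlap (a fold of 0.498, edgeR adjusted p = 0.436, log2 fold change -0.62 without F10-intact sample 4). Gucy1b1, the partner subunit of the nitric oxide receptor, was at 0.99 ± 0.46 (SE, edgeR adjusted p = 0.501), or 0.61 without F10-intact sample 4, and, like Nos1, did not overlap between the groups. In the ornithine, proline and creatine branch 0 of 11 passed, with a median of 0.04. Pycr1, which makes proline from ornithine or glutamate by way of pyrroline carboxylate, had 9.51, 7.20 and 8.09 CPM against 4.62, 2.20 and 3.58 CPM (-1.26 ± 0.33, SE, edgeR adjusted p = 0.230, DESeq2 adjusted p = 0.0356). Pycr1 was lower in every F10-deleted sample than in any F10-intact sample. Gatm, the first enzyme of creatine synthesis, was at 0.25 ± 0.23 (SE, edgeR adjusted p = 0.758), or 0.08 without F10-intact sample 4.

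Control of polyamine synthesis showed 0 of 15 genes passing and 4 above 1. Got1, the cytosolic aspartate aminotransferase that also can close the methionine salvage of polyamine synthesis, had 20.1, 24.6 and 20.6 CPM in the F10-intact samples and 35.6, 35.9 and 34.2 CPM in the F10-deleted samples. Its groups lay far apart relative to their spread (log2 fold change 0.69 ± 0.14, SE, edgeR adjusted p = 0.137, DESeq2 adjusted p = 0.0062). The skeletal muscle and adipocyte markers given above separate the same samples, and their part in the Got1 values was not tested. Amd1, which makes the aminopropyl donor used by Srm and Sms, had 191, 317 and 396 CPM against 205, 225 and 249 CPM, with F10-intact samples 3 and 4 highest, as for Sms (-0.41 ± 0.25, SE, edgeR adjusted p = 0.617, or -0.17 without F10-intact sample 4). Amd2, a close copy with which reads may be shared, was at -1.05 ± 0.57 (SE, edgeR adjusted p = 0.566), or -0.29 without F10-intact sample 4.

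Among 18 genes of polyamine breakdown, transport and use, 0 passed, 6 were above 1 and 4 were lower in every F10-deleted sample, against 7.67% of all genes. Sbp, the spermine-binding protein of prostate secretion, had 1038, 2641 and 3107 CPM in F10-intact samples 1, 3 and 4 and 211, 274 and 460 CPM in F10-deleted samples 1, 3 and 4. As with Sms and Amd1, sample 1 was the lowest and sample 4 the highest in each group. Summed smooth muscle markers ran the other way, at 3373, 2161 and 929 CPM in F10-intact samples 1, 3 and 4. In F10-deleted samples 1, 3 and 4 they stood at 2551, 2545 and 1319 CPM. Endothelial markers fell likewise, at 65.0, 49.3 and 37.3 CPM in F10-intact samples 1, 3 and 4 and 93.9, 85.0 and 64.2 CPM in F10-deleted samples 1, 3 and 4. Luminal epithelial markers rose from sample 1 to 4 with intact marrow (7883, 7915 and 8505 CPM). With deleted marrow they did not keep that order (7538, 8234 and 7119 CPM). The part of tissue content in these orders was not tested. The Sbp log2 fold change was -2.84 ± 0.48 (SE, edgeR adjusted p = 0.0974, DESeq2 adjusted p = 2.09e-09), and its near copy Sbpl, with which reads may be shared, was at -2.72 ± 0.47 (SE, edgeR adjusted p = 0.105). Without F10-intact sample 1 the edgeR adjusted p was 0.0346 for Sbp and 0.0431 for Sbpl, in ranges that reached no other value under 0.05 among the edgeR fits. Of the 3 tested genes of arginine sensing 0 passed, with Castor2 at 0.28 ± 0.24, Slc38a9 at -0.09 ± 0.15 and Castor1 at 0.02 ± 0.40 (log2 fold change, SE). Without F10-intact sample 4, Castor2 was at 0.05 and Castor1 at -0.27.

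Regulators of Arg1 and Nos2 had 0 of 16 passing, 12 above 1, 4 higher in every F10-deleted sample (against 8.99% of all genes) and 1 lower in every F10-deleted sample (against 7.67%). The last, Irf8, a myeloid transcription factor named after its values were seen, had a log2 difference of -0.31 ± 0.15 (SE, with an edgeR adjusted p of 0.503). Hif1a, a hypoxia-inducible factor, had 81.5, 110 and 88.4 CPM against 119, 160 and 141 CPM, without overlap (0.59 ± 0.17, SE, edgeR adjusted p = 0.263). Pparg, a nuclear receptor of adipocytes and macrophages, had 11.6, 13.3 and 11.6 CPM against 22.2, 61.1 and 27.1 CPM (1.60 ± 0.38, SE, edgeR adjusted p = 0.194, DESeq2 adjusted p = 0.00276), or 1.05 without F10-deleted sample 3. The adipocyte markers given above separate the same samples, and their part in the Pparg values was not tested. Tnf, an inflammatory cytokine, was at -0.55 ± 0.25 (SE, edgeR adjusted p = 0.485), or -0.28 without F10-intact sample 4. Of 9 tested genes of alternative macrophage activation 0 passed and 6 were above 1. Egr2, a transcription factor, was at 0.88 ± 0.33, the transglutaminase Tgm2 at 0.43 ± 0.19 and the mannose receptor Mrc1 at 0.28 ± 0.19 (log2 fold change, SE, edgeR adjusted p = 0.380, 0.458 and 0.648). Mrc1 was at 0.45 without F10-intact sample 4. Egr2 and Tgm2, 2 of the 9, were higher in every F10-deleted sample than in any F10-intact sample, against 8.99% of all genes.

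**Figure D5:**
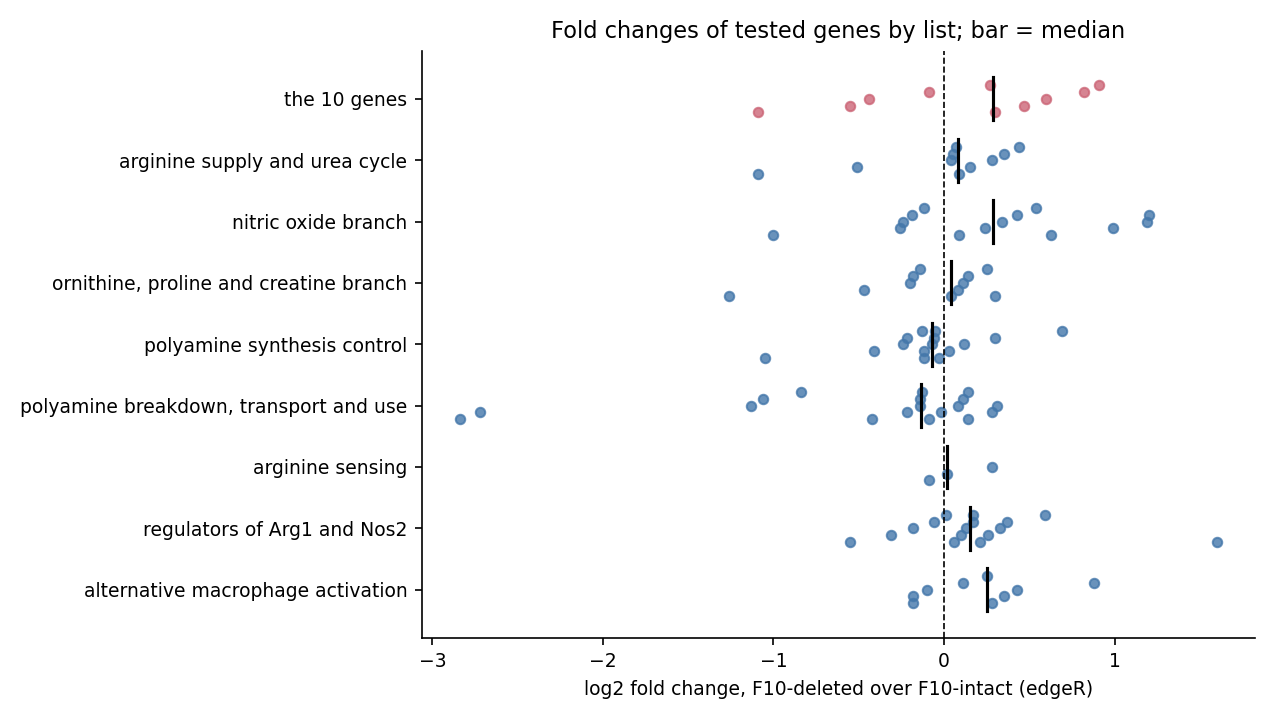
Log2 fold changes, F10-deleted over F10-intact (edgeR), of the 10 genes (red) and of the 96 tested genes of the 8 other lists (blue), with the median of each list as a black bar and a small vertical offset between points. The medians lie between -0.13 and 0.29, and the 2 points furthest left are Sbp (-2.84) and Sbpl (-2.72).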

How the data were processed

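The authors deposited 1 table of raw counts per Ensembl gene. Libraries came from poly-A RNA with a directional kit and were sequenced from 1 end over 120 bases, per the labels' protocols. STAR 2.7.10a, GRCm38 and DESeq2 (no version or role) are named in the submitters' processing notes. How reads were counted (program, strand, annotation) is not given in the sources used here, which leaves near-identical copies uncertain. The genes and lists were chosen with earlier results of these data known.

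Symbols, coordinates and exon lengths came from GENCODE M21, which matched 21592 of 21718 identifiers. Filtering by filterByExpr (minimum count 10) left 15963 genes for the edgeR 4.0.16 quasi-likelihood test (R 4.3.3, TMM factors, robust dispersion, Benjamini-Hochberg adjustment). SE and 95% intervals follow from its F statistic. Since the labels do not state separate animals, p-values measure only sample-to-sample spread, which may be technical. No pair of samples in a group agreed within sampling noise (chi-square per degree of freedom 24.7 to 86.6).

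Named beside the 10 genes were the 3 tested genes with the smallest p in each list. Some of these are not reported here. Lists were described by counts and medians. DESeq2 1.42.0, limma-voom (limma 3.58.1), other scalings and filters, and leaving out each sample were tried. Same-numbered samples shifted together relative to their groups (correlations of deviations across genes of 0.35, 0.135 and 0.181 for numbers 1, 3 and 4, all over 0.1), and were taken as pairs in the block fit. Unlike-numbered samples gave correlations of -0.247 to 0.0682. Deviations cancel out within a group, so positive values for like numbers pull these down, and they are no separate evidence for pairs. The pairing was thus read from these same data, with 3 samples per group, and what the numbers share was not tested. The labels name no shared day or litter.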

Additional observations from a re-analysis of the deposited data

How the results depend on the processing

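Over the fits, 0 of the 10 genes were called in any, and 6 or 7 had a fold change above 1. The median log2 fold change of the 10 ranged from 0.11 without F10-intact sample 4 to 0.42 without F10-deleted sample 1, against 0.29. Over all genes the main test called 7. A filter of at least 1 CPM in 3 samples called 2, limma-voom 2, DESeq2 487, and the fit with the replicate block 2, while leaving out single samples gave 0 (leaving out F10-intact sample 3, or else F10-deleted sample 4) to 72 (without F10-intact sample 1). The other pathway genes called were 0 in the main test, 6 with DESeq2 (Pparg, Pycr1, Slc25a29, Sbp, Sbpl and Got1), 0 with the replicate block, and 0 to 2 with 1 sample left out, the 2 being Sbp and Sbpl without F10-intact sample 1. With 1 sample left out, the log2 fold change changed sign for Smox (-0.25 to 0.12), Slc38a9 (-0.21 to 0.0034) and Castor1 (-0.27 to 0.44), and the cause was not tested. With the replicate block, an exact two-sided sign-flip permutation test of the pairs gave p = 0.25 for the Arg1 to Arg2 ratio (difference 1.13), the smallest that 3 pairs allow, and the block called 0 of the 10 genes, as without it. Without Lyz2 among the macrophage markers, chosen after seeing the data, the difference for Arg1 to these markers was 0.74, against 0.59. Nos2 had only 16 to 50 counts per sample, and the part of depth in its precision was not tested.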
